A study of Rattus norvegicus with 15 samples.

Results

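The nuclear genes for the subunits of mitochondrial oxidative phosphorylation were examined in the livers of rats given fipronil, a phenylpyrazole insecticide, or its vehicle. Members were chosen by the gene name printed in the array files, with names beginning Ndufa, Ndufb, Ndufc, Ndufs or Ndufv, Sdha to Sdhd, Uqcr, Cox4 to Cox8 or Atp5, and Ndufaf1, an assembly factor of the same spelling, was left out. Each name was represented by its brightest probe. The rule found 80 probes for 69 names among 35737 features, and 66 of the 69 were above background on enough arrays to be tested, among 19931 features tested. Of the 69 names, 65 belong to subunit genes. The other 4 are not subunit genes: Cox4nb is now Emc8, of the endoplasmic reticulum membrane complex, Atp5s is now Dmac2l, Cox7a2l organises respiratory supercomplexes, and Cox6c1 is a pseudogene.

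Liver fragments came from the large lobe of female Wistar Crl:WI rats aged 2 to 3 months. The treated group swallowed a daily fipronil dose of 3 mg/kg through a feeding needle over 14 days (n = 8), and controls received only the vehicle, 0.5% methylcellulose with 0.01% Tween 80 in water (n = 7). Every rat was hybridised to its own one-colour array, and each of the 4 slides held both groups. RNA from whole liver was measured, so fewer cells of a type and less RNA per cell cannot be told apart.

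The respiratory chain passes electrons from NADH, through complex I, and from succinate, through complex II, to ubiquinone and then through complexes III and IV to oxygen. Complexes I, III and IV move protons across the inner mitochondrial membrane, and complex V, the ATP synthase, lets them return through a ring of c subunits to make ATP. Hepatocytes depend on this pathway to pay for gluconeogenesis, urea synthesis and secretion. Most subunits are nuclear genes, whose promoters often carry sites for NRF1, ETS factors, ESRRA and YY1, whereas a small set of core subunits is encoded by mitochondrial DNA.

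The promoters of the subunit c genes are shown first because the member past the test was a gene of this trio. The 3 genes encode the same mature c subunit behind different import sequences. Each window runs from 250 bases before to 50 bases after the gene start, 5′ to 3′ on the gene's strand, from RefSeq assembly GRCr8. Capitals mark matches to the searched letters.
Atp5g1 (current symbol Atp5mc1), chr10:81523296-81523595, minus strand: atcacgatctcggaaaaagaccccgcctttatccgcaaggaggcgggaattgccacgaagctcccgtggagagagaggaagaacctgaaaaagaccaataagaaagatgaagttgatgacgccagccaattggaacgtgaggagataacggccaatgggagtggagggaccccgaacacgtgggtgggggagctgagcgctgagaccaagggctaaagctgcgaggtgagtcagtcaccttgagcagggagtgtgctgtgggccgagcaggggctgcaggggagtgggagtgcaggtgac
Atp5g2 (current symbol Atp5mc2), chr7:135678169-135678468, minus strand: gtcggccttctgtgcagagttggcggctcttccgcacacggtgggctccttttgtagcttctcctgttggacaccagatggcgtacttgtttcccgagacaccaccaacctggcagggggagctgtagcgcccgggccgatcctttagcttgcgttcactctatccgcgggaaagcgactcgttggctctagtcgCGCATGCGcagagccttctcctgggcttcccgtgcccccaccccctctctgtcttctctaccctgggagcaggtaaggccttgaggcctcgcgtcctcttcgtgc
Atp5g3 (current symbol Atp5mc3), chr3:79220615-79220914, minus strand: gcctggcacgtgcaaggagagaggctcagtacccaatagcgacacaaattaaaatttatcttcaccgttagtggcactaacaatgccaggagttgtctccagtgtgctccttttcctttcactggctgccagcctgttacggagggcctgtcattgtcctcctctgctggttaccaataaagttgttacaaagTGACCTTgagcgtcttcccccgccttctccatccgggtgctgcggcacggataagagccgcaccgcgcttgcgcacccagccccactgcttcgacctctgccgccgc

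The letters searched on both strands were GCATGCG for the NRF1 core, CCGGAAG for ETS factors, AAGGTCA for ESRRA and ATGGCGG for YY1. The promoter of Atp5g2 held the NRF1 core on both strands, in matches that overlap each other, at positions -55 and -54. That of Atp5g3 held the ESRRA letters on the reverse strand at position -57. That of Atp5g1 held none of these letters in the window. The promoter table held 60 of the 69 members, and 34 of them (56.7%) had at least 1 of the 4 motifs, against 19.9% of all 27457 promoters of this length in the table. The ETS letters were in 18 of the 60 (30%) and in 9.22% of all, and the YY1 letters in 15 (25%) and 5.22%. The ESRRA letters were in 9 (15%) and 4.37%, and the NRF1 core in 8 (13.3%) and 3.54%. The windows of Cox4i1 and Cox4nb overlap on opposite strands of chromosome 19 and each held 2 ETS matches, so they are not separate sequences. The 60 include Cox4nb, Cox7a2l and Atp5s, which are not subunit genes. These are matches of letters, given as a description of the promoters.

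Array brightness and saturation stand before the results. Arrays of fipronil rats were brighter: their 75th percentile averaged 210 intensity units ± 25.8 (SD, n = 8) against 172 ± 33.3 in vehicle rats (SD, n = 7; exact permutation test, two-sided, p = 0.0196, adjusted p = 0.0233 over 3 measures). They also had more saturated probes, 168 ± 16.9 against 135 ± 27.4 (SD; exact permutation test, two-sided, p = 0.0126). Signal here means log2 processed intensity after subtracting the log2 75th percentile of that array, so a probe at the scanner's ceiling in both groups takes a lower signal on the brighter arrays. The 70 features saturated on all 15 arrays differed by -0.34 to -0.22 (fipronil minus vehicle, log2), and all 70 lay below 0. Vehicle rat 7 had the dimmest array, with a 75th percentile of 115. The liver label was checked against 10 hepatocyte markers, all above background on all arrays, with 0 of 10 past the test. Their summed level ran from 1729 to 2422 with fipronil and from 2186 to 3751 in vehicle rats, and their median difference was -0.24. Of the 10, 5 were saturated on all 15 arrays and a further one, Apoa1, on 11. The 4 never saturated lay between -0.23 and 0.03, with a median difference of -0.08. Their summed levels were 186 to 299.7 with fipronil and 233 to 367 in vehicle rats. Of the endothelial markers, 0 of 4 tested passed, with a median difference of 0.35 and summed levels of 67.3 to 128 with fipronil against 56.3 to 77.2 in vehicle rats. Of the markers of Kupffer, lymphoid, bile duct, stellate, erythroid, brown fat and striated muscle cells, 0 passed as well. The part of these cell types in the results on subunit genes was not tested.

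Rats differed across these genes within their groups. Fipronil rat 6 had the highest signal of its group for 33 of the 64 members measured in all fipronil rats (51.6%, against 23.9% of all features), and the lowest for 14. Its median deviation from the vehicle mean was 0.12 over the members. Vehicle rat 7 was highest in its group for 34 of 63 (54.0%, against 22.8% of all features). Without fipronil rat 6 the median difference of the 66 was -0.06, and without vehicle rat 7 it was -0.02. The median deviation of the members in a rat ran from -0.16 to 0.12 with fipronil and from -0.08 to 0.11 in vehicle rats, so the ranges overlapped.

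**Figure D1:**
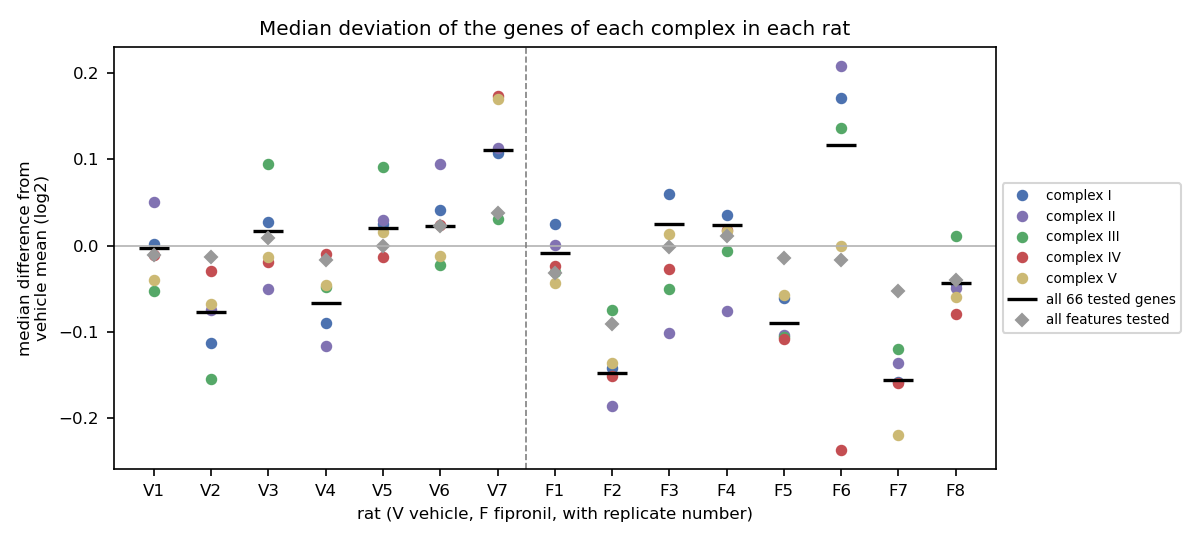
Median log2 deviation of each rat from the vehicle mean (y axis) for the genes of each complex, all 66 tested genes and all features tested, by rat (x axis). The 66 genes range from -0.08 to 0.11 over vehicle rats and from -0.16 to 0.12 over fipronil rats, with fipronil rat 6 highest.

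Transcripts for the respiratory chain and ATP synthase differed little between the groups. Of the 66 tested names, 1 passed the test (limma, Benjamini-Hochberg adjusted p under 0.05 over all features), and it was lower with fipronil. Over all features 0.798% passed, 104 higher (0.522%) and 55 lower (0.276%) with fipronil. That split was 161 and 42 when arrays were scaled to their median, and 152 and 42 after cyclic loess. At an unadjusted p under 0.05, 9 of the 66 were counted (13.6%), 2 higher and 7 lower, against 17.4% of all features. The differences of the 66 ran from -0.35 to 0.38 with a median of -0.04, beside -0.03 for all features. Of the 66, 42 lay below 0 (63.6%, against 55.7% of all features), but 26 did so with median scaling, 32 with array brightness as a covariate and 27 of 62 after cyclic loess, so the balance of signs turned with the scaling.

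The estimates were narrow. For 65 of the 66 the 95% interval of the difference lay within 1.5-fold in either direction. Among all features 71.4% of intervals lay within 1.5-fold, and in the brightest 10% of features, which held 52 of the 66, 89.1%. The exception was Ndufs4. The median SD between rats was 0.13 in vehicle and 0.15 in fipronil rats for the 66, against 0.24 and 0.26 for all features. The tested names were above background on at least 12 of the 15 arrays, so none entered through 1 group alone. The untested 3 were Cox6b (now Cox6b1) and Cox6c1, above background on 1 array each, and Cox6b2, above it on 0. Cox6b was read by 1 probe, and whether the probe or the transcript gave the low signal was not tested.

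**Figure D2:**
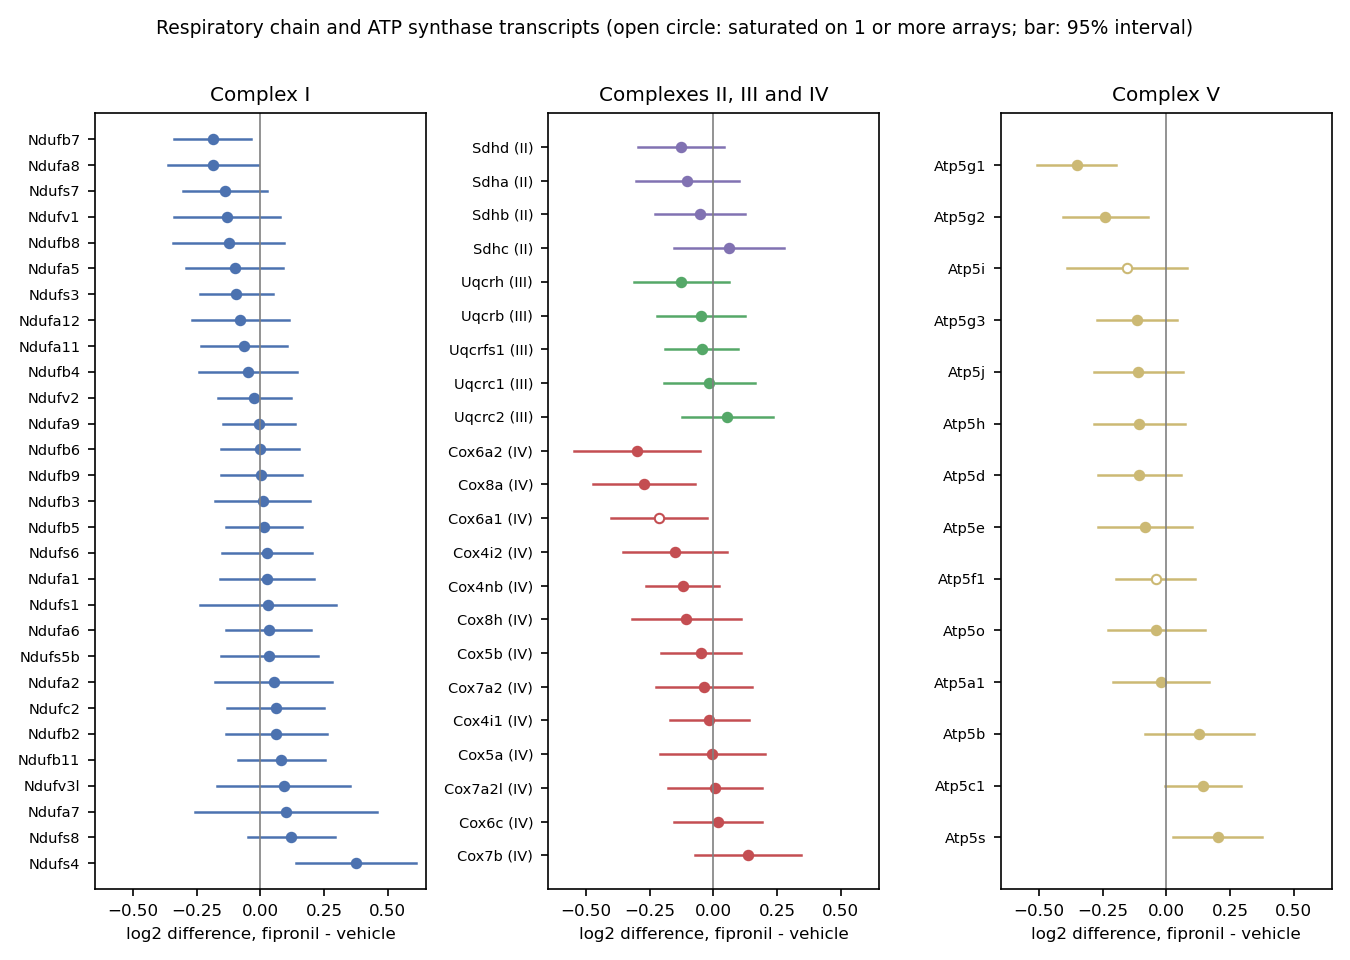
Log2 difference in signal (fipronil minus vehicle, x axis) of 65 of the 66 tested genes, with 95% intervals, by complex; open circles are probes saturated on at least 1 array. Most intervals cross 0, and Atp5g1, at -0.35, was the gene past the test.

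Complex I, which oxidises NADH, had 30 tested genes, of which 0 passed and 3 had an unadjusted p under 0.05 (1 higher, 2 lower). Its median difference was 0.01, with 16 above 0 and 14 below. Ndufa10l1, printed under a name that the rule does not take, differed by 0.08 (limma adjusted p = 0.684). The core subunits, which carry the flavin, the iron-sulphur clusters and the ubiquinone site, lay between -0.14 and 0.12 (adjusted p at least 0.376). Ndufs7, which binds the last cluster before ubiquinone, had the lowest difference among them, with a signal of 6.63 ± 0.14 in fipronil and 6.77 ± 0.11 in vehicle rats (SD, n = 8 and 7). Ndufs8, a carrier of iron-sulphur clusters, had the highest, 3.03 ± 0.15 against 2.91 ± 0.11. Ndufv1 and Ndufv2, of the NADH-oxidising module, differed by -0.13 and -0.02, Ndufs3 by -0.09 and Ndufs1 by 0.03. The groups of rats overlapped for each of these named genes.

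The 23 accessory subunits of complex I lay between -0.19 and 0.38, with a median of 0.01. Ndufs4, an accessory subunit needed for a stable NADH module, had the highest difference of all 66. Its signal was -2.87, -2.64 and -2.13 (lowest, median and highest) in fipronil rats and -3.16, -3.02 and -2.72 in vehicle rats. The groups overlapped, although all 8 fipronil rats lay above the vehicle mean. The difference was 0.38 (SE 0.11, limma adjusted p = 0.119), which did not pass, and it was 0.15 (adjusted p = 0.221) after normexp background correction with quantile normalization. After quantile normalization of processed intensity it was 0.43 (adjusted p = 0.0817), and after cyclic loess 0.46 (adjusted p = 0.0768). Its probe was above background on all 15 arrays, but it was the dimmest of the 66, with a mean signal of -2.98 in vehicle rats. Ndufb7 and Ndufa8, accessory subunits of the membrane arm, both differed by -0.19 (SE 0.07 and 0.08, adjusted p = 0.202 and 0.263), with all 8 fipronil rats below the vehicle mean for each.

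Complex II, succinate dehydrogenase, joins the chain to the citric acid cycle. Of its 4 genes, 0 passed the test. The flavoprotein gene Sdha differed by -0.10 and the iron-sulphur gene Sdhb by -0.05. The membrane anchors Sdhc and Sdhd differed by 0.06 and -0.13. The adjusted p was at least 0.439 for the 4.

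Complex III, the cytochrome bc1 complex, had 5 tested genes and 0 past the test. The core proteins Uqcrc1 and Uqcrc2 differed by -0.02 and 0.05. The Rieske iron-sulphur gene Uqcrfs1 differed by -0.05, from 6.17 ± 0.12 in vehicle to 6.12 ± 0.06 in fipronil rats (SD). The small subunits Uqcrb and Uqcrh differed by -0.05 and -0.13. Cyc1, the cytochrome c1 gene, which the naming rule does not take, differed by -0.15 (SE 0.07, adjusted p = 0.305). Uqcrq, printed as Qpc and so not taken either, was above background on 0 arrays and was not tested. Whether its probe or its transcript gave the low signal is not known here.

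Complex IV, cytochrome c oxidase, had 11 tested subunit genes and 0 past the test, with a median of -0.05. Cox4nb and Cox7a2l, taken by name, did not pass either. Cox8c, printed under a name that the rule does not take, was above background on 0 arrays. Among the subunits of most tissues, Cox4i1, the largest nuclear subunit, was at 5.23 ± 0.14 in fipronil and 5.24 ± 0.04 in vehicle rats (SD, n = 8 and 7), a difference of -0.02 (SE 0.07). Cox5a, Cox5b, Cox6c and Cox7a2 lay between -0.05 and 0.02. Cox7b had the highest difference of the complex, 0.14 (SE 0.10, adjusted p = 0.512). Cox8a, a small membrane subunit, was at 6.79, 7.15 and 7.35 (lowest, median, highest) with fipronil and at 7.26, 7.37 and 7.72 in vehicle rats. Every fipronil rat lay below the vehicle mean, but the ranges overlapped. That mean includes vehicle rat 7, with the dimmest array, at 7.72, and the next highest vehicle rat was at 7.41. The difference of Cox8a without this rat is not given here. Over all rats the difference of Cox8a was -0.27 (SE 0.09, adjusted p = 0.171).

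Of the isoforms known from other tissues, 3 were above background and Cox6b2, of testis, was not. Cox6a2 and Cox8h (now Cox8b), of heart and skeletal muscle, and Cox4i2, of lung, were above background on all 15 arrays and differed by -0.30, -0.11 and -0.15 (adjusted p = 0.209, 0.632 and 0.449). Cox8h had 3 probes, and those not used were above background on 9 and on 0 arrays. Of 7 striated muscle markers, 4 were above background on 0 arrays, among them the muscle creatine kinase gene Ckm, whereas the myoglobin gene Mb and the cardiac actin gene Actc1 were above it on all 15. The summed level of the 7 markers was 1.07 to 1.37 with fipronil and 1.14 to 1.65 in vehicle rats. The 3 markers tested differed by -0.82 to -0.18, with a median of -0.25. Of these 3, 0 passed, and 1 was lower at an unadjusted p under 0.05 (limma). The part of striated muscle cells in these values was not tested. The general isoform Cox6a1 differed by -0.21 (SE 0.09, adjusted p = 0.233), but its probe reached saturation on 7 of the 8 arrays with fipronil and 5 of the 7 with vehicle.

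Complex V, the ATP synthase, held the member that passed. Of its 13 tested subunit genes 11 lay below 0, beside 55.7% of all features. Atp5mg and Atp5mk, complex V subunits printed under names that the rule does not take, differed by 0.07 and -0.02 (limma adjusted p = 0.727 and 0.931). Over the 14 names, Atp5s included, the median change of complex V was -0.10 (-0.11 without Atp5s), but it was -0.000438 with array brightness as a covariate and 0.01 after cyclic loess. Genes of the catalytic head varied in sign: the alpha and beta subunits Atp5a1 and Atp5b differed by -0.02 and 0.13, the gamma subunit Atp5c1 by 0.14, the delta subunit Atp5d by -0.11 and the epsilon subunit Atp5e by -0.08. The 5 genes of the stalk and small membrane subunits lay between -0.15 and -0.04, and 2 of them, Atp5i and Atp5f1, were saturated on some arrays. Apart from Atp5g1, 0 genes of the complex passed.

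Atp5g1 encodes the c subunit of the proton ring, and its probe lies at rn4 chromosome 10, 84788826 to 84789159. Its signal was 7.31, 7.48 and 7.57 (lowest, median, highest) in fipronil rats and 7.71, 7.80 and 8.10 in vehicle rats. The groups did not overlap, which was so for 0.607% of all features. Signal was 1.28-fold lower with fipronil (95% interval 1.15 to 1.42), a log2 difference of -0.35 (SE 0.07, limma adjusted p = 0.0307). Within slides 1, 2, 3 and 4 the difference was -0.36, -0.29, -0.33 and -0.42. It was below 0 in all 34 alternative settings, from -0.38 to -0.26, and passed the test in 19. With array brightness as a covariate it was -0.26 (adjusted p = 0.302), and with median scaling -0.29 (adjusted p = 0.0602). Vehicle rat 7, with the dimmest array, had the highest Atp5g1 signal, and without it the difference was -0.31 (adjusted p = 0.0571). Leaving out fipronil rat 3, 7 or 8 or vehicle rat 1 or 2 also ended the call, with adjusted p between 0.0537 and 0.0648.

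The other genes for the same mature c subunit did not pass. Atp5g2 was at 7.73, 7.92 and 8.01 (lowest, median, highest) with fipronil and at 8.00, 8.08 and 8.46 in vehicle rats. Those ranges met only at their edges, and all 8 fipronil rats lay below the vehicle mean. Its difference was -0.24 (SE 0.08, adjusted p = 0.149), and its second probe gave -0.05. Atp5g3 was at 6.91, 7.06 and 7.17 with fipronil and at 6.96, 7.16 and 7.38 in vehicle rats, and the groups overlapped. It differed by -0.11 (SE 0.07, adjusted p = 0.448). The differences among the 3 genes were not tested, and probe sequences were not used here, so cross-hybridisation between these related genes was not tested.

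**Figure D3:**
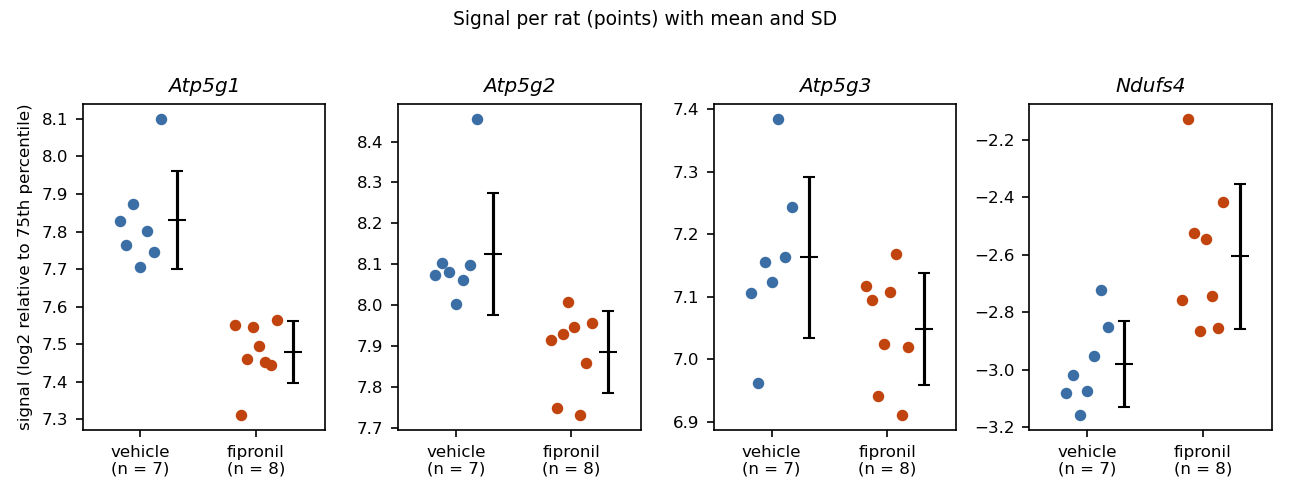
Signal (log2, less the 75th percentile of its array, y axis, a separate range in each panel) of each vehicle (n = 7) and fipronil (n = 8) rat, with mean and SD. For Atp5g1 the groups do not overlap, and for Atp5g2, Atp5g3 and Ndufs4 they do.

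**Figure D4:**
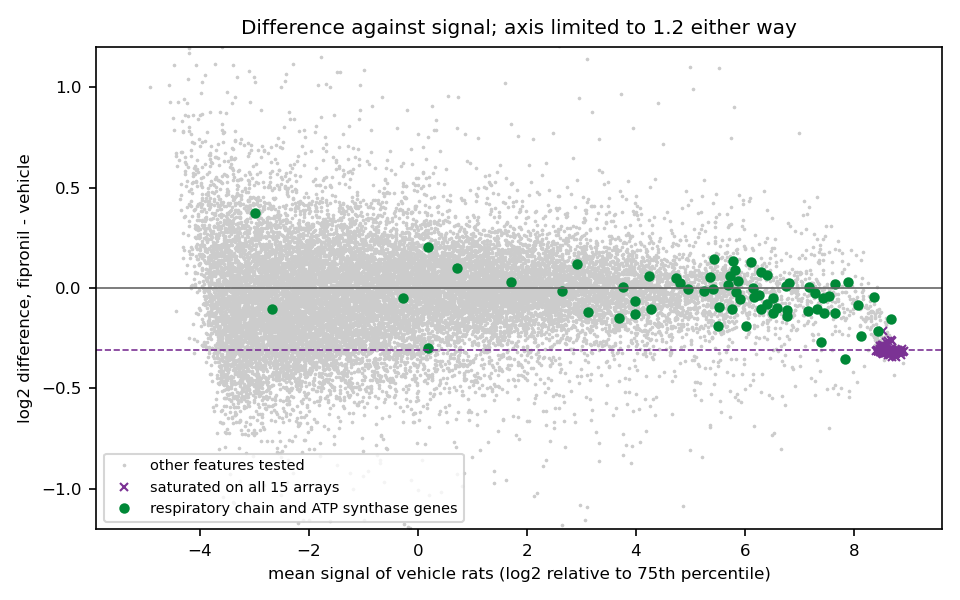
Log2 difference (y axis, fipronil minus vehicle) against the mean signal of vehicle rats (x axis, log2 relative to the 75th percentile) for the features tested; points beyond 1.2 either way are not drawn. The respiratory chain and ATP synthase genes lie mostly at high signal, and features saturated on all 15 arrays lie near the dashed line, the log2 difference of -0.31 set by the arrays' 75th percentiles.

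The 3 saturated members, Cox6a1, Atp5i and Atp5f1, had a median difference of -0.15, and the 63 never saturated had -0.04. Atp5g1 and Atp5g2 were saturated on 0 arrays. The part of brightness in these values was not tested beyond the settings given.

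Core subunits encoded by mitochondrial DNA were read by 17 probes for 7 genes, of which 0 passed. At an unadjusted p under 0.05 (limma) 7 of the 17 probes were counted, against 17.2% of all probes. Of these, 5 never-saturated probes, for COX2, COX3, CYTB and ND5, were higher with fipronil. The 2 probes saturated on all 15 arrays were lower. The 13 probes never saturated, for COX2, COX3, CYTB, ND2 and ND5, all lay above 0, between 0.18 and 0.37 with a median of 0.26, and the lowest adjusted p was 0.215. They also lay above 0 with median scaling (0.24 to 0.43), after quantile normalization (0.20 to 0.37), with slide as a block and with array brightness as a covariate. The 4 probes saturated on some array lay between -0.31 and 0.01. These 2 sets of probes share RNA and arrays, and probes of 1 gene are not replicates.

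**Figure D5:**
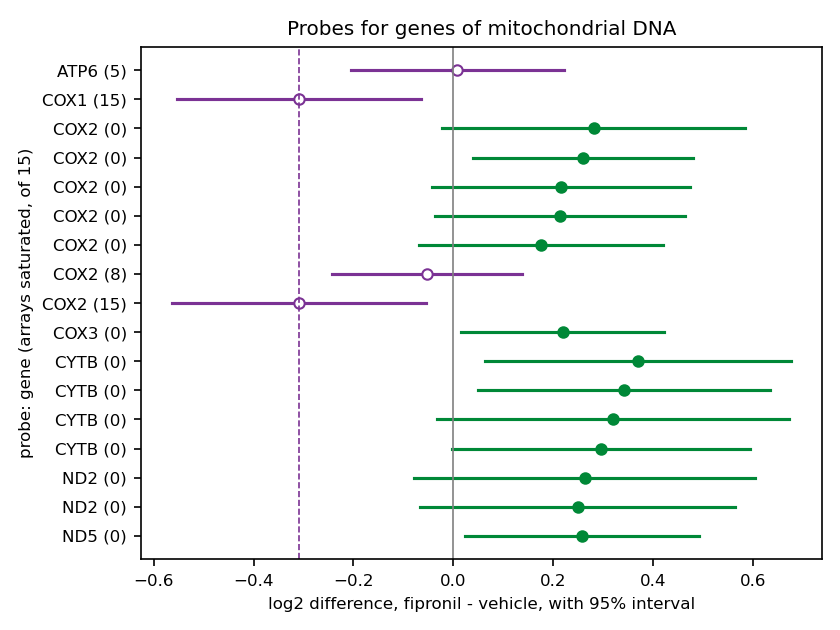
Log2 difference with 95% interval (x axis) for each of the 17 probes for mitochondrially encoded subunits (y axis, with the number of arrays on which the probe was saturated). The 13 filled points, never saturated, lie between 0.18 and 0.37, and the 2 probes saturated on all 15 arrays lie at the dashed line of -0.31.

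Other genes of the pathway were taken from lists and read beside the 0.798% of all features past the test. Of 28 tested assembly factors, which build the complexes, 0 passed. In the alternatives, 1 passed as lower in the authors' deposited table and 1 as lower without fipronil rat 5. Without fipronil rat 6, 1 passed as higher. Sdhaf1, for complex II, differed by -0.32 (adjusted p = 0.0663) and Cox15, for the heme of complex IV, by 0.36 (adjusted p = 0.0844). Of 21 electron carriers, ubiquinone enzymes and inner-membrane carriers 0 passed. At an unadjusted p under 0.05 (limma) 8 of the 21 were counted (38.1%), 5 higher and 3 lower, against 17.4% of all features. The ubiquinone gene Coq4 differed by 0.37 (adjusted p = 0.143) and Higd1a by -0.29 (adjusted p = 0.196). The cytochrome c gene Cycs differed by -0.05, and the ADP/ATP carriers Slc25a4 and Slc25a5 by 0.13 and -0.02. Of 60 mitochondrial ribosomal proteins 0 passed, with a median of 0.00; Mrps7 and Mrpl16 had the smallest p (0.28 and 0.19, adjusted p = 0.231 and 0.235). Of 72 cytosolic ribosomal proteins 0 passed, with a median of -0.04, and 1 passed as higher after quantile normalization of processed intensity. Of the 72, 19 were saturated on at least 1 array, and the 53 never saturated had a median of -0.01. Rps23 and Rpl7a had the smallest p (-0.31 and -0.29, adjusted p = 0.191 and 0.198), but they were saturated on 15 and 14 arrays, and features saturated on all 15 arrays had a median of -0.31.

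Among 19 genes of the citric acid cycle and pyruvate dehydrogenase, 1 fell. Pc, pyruvate carboxylase, which refills the cycle and starts gluconeogenesis, was at 6.97, 7.25 and 7.56 with fipronil and at 7.55, 7.78 and 7.92 in vehicle rats. The ranges met only at their edges. Its difference was -0.50 (SE 0.10, limma adjusted p = 0.0232), and it passed in 20 of 34 alternatives. It did not pass with brightness as a covariate (adjusted p = 0.203), with replicate number as a block (0.0710), without slide 1 (0.200), slide 2 (0.0650) or slide 4 (0.297), after cyclic loess (0.0740), after normexp correction (0.0515) or with no filter on dim probes (0.0628). Dlst, of the oxoglutarate dehydrogenase complex, had the next smallest p, with a difference of -0.22 (adjusted p = 0.181). Pc also missed the threshold without fipronil rat 3, 7 or 8 or vehicle rat 1, 2 or 7 (adjusted p 0.0505 to 0.0607).

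Among 18 regulators of mitochondrial biogenesis and mitochondrial DNA, 1 rose. Polg, the catalytic subunit of the mitochondrial DNA polymerase, was at 2.05, 2.62 and 3.15 with fipronil and at 1.00, 1.69 and 2.06 in vehicle rats. The ranges overlapped only at their edges. It was 2.03-fold higher, a log2 difference of 1.02 (SE 0.18, limma adjusted p = 0.0109), and passed in 30 of 34 alternatives. The exceptions were brightness as a covariate (0.73, adjusted p = 0.190), the fits without slide 1 (adjusted p = 0.151) or slide 4 (0.199), and the fit with replicate number as a block (0.0527). The mitochondrial transcription factor gene Tfam differed by 0.07 (SE 0.06, adjusted p = 0.571) and the receptor genes Esrra and Esrrb by -0.15 and -0.36 (SE 0.08 and 0.10, adjusted p = 0.331 and 0.109).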

How the data were processed

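Liver RNA of 15 rats was measured on one-colour Agilent arrays, 1 per rat. The authors deposited scanner tables of spot intensity made with Feature Extraction 9.5.3.1, per the file headers; the processed intensity is background subtracted and detrended but not normalized between arrays. The deposited tables also flag each spot as saturated, well above background or an outlier. The authors' deposited series table holds log2 values and served as an alternative; the submitters' processing notes name Agilent Feature Extraction 9.5 and limma, with no role given. Probe coordinates are those of rn4, per the file headers. Gene names are those of the array design; current symbols came from RefSeq GRCr8, by accession for 44 members, symbol for 21 and synonym for 4.

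Outlier spots were dropped, spots of a probe averaged, and log2 processed intensity taken relative to the 75th percentile of each array. Features above background on at least 7 arrays, and missing on at most 3, were tested with limma 3.58.1 in R 4.3.3 (lmFit, eBayes, no covariate, two-sided), and Benjamini-Hochberg adjustment ran over all features tested. An outlier spot left Ndufv3l with 6 rats a group, and Ndufc2, Sdhd and Atp5i with 14 rats. The fit was tested on simulated data. The number of arrays limits the precision. Alternatives were other scalings and normalizations, other filters and probe rules, slide or replicate number as a block, brightness as a covariate, and fits without each rat or slide; cyclic loess was added after seeing the data. Members, lists, named genes and tests were chosen with earlier results of these data known. Named genes were core or catalytic subunits and paralogous isoforms, every member past the test, the 3 smallest p and the extreme differences of each complex, the 5 highest and 5 lowest differences of all members, members saturated on any array or dim on most, and the 2 smallest p of each pathway list. Tfam, Esrra, Cycs, Slc25a4, Slc25a5, Atp5e and the markers were named after their values were seen. The values of 1 tested member are not reported here.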

Additional observations from a re-analysis of the deposited data

Results flagged for a closer look

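In groups of 6 to 8 rats, a rat was singled out where its signal stood far from the nearest other rat of its group, relative to the range of the group. Of 132 sets of values for the 66 tested genes, 11 held such a rat, and chance singles out about 1 in 20.

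Fipronil rat 6 accounted for 5 of the 11. It was the highest of its group for Ndufb4 (7.83), Sdhc (4.83), Sdhd (6.63) and Cox5a (5.88), and the lowest for Cox4nb (2.80). Vehicle rat 7, with the dimmest array, was the highest of its group for Cox8a (7.72), Atp5g1 (8.10) and Atp5g2 (8.46). Vehicle rat 6 was the highest for Ndufb4 (7.59), vehicle rat 1 the lowest for Cox4nb (2.96) and fipronil rat 2 the lowest for Cox6a1 (7.89). Fipronil rat 2 had the brightest array, with a 75th percentile of 270, and the Cox6a1 probe was saturated on 7 of the 8 fipronil arrays. The part of scaling in that low value was not tested.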

How the results depend on the processing

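The 159 features past the test became 78 with no filter on dim probes, 39 with array brightness as a covariate, 33 without slide 1 and 49 without slide 4. Leaving out each rat in turn gave 80 (without fipronil rat 8) to 268 (without vehicle rat 3). The 1 respiratory chain or ATP synthase gene past the test became 0 with median scaling, with no filter, with brightness as a covariate, after cyclic loess and without slide 1, 2, 3 or 4; leaving out single rats gave 0 to 1. The median change of complex V moved to -0.000438 with brightness as a covariate and to 0.0090 after cyclic loess. The median of the 66 genes lay between -0.06 and 0.02 in all settings, and no named member other than Atp5g1 passed the test in any setting. Replicate numbers were not taken to pair the rats: of 7 correlations between same-numbered rats, 3 were over 0.1. Of the 7 pairs, 6 shared a slide. Among the vehicle rats, 4 fipronil rats correlated best with the one of their number, a hint from the data and not from the design. With replicate number as a block, 87 features and 0 members passed, and Atp5g1 was at -0.36 (adjusted p = 0.112). Saturation limits the differences of the brightest probes, which have only a ceiling.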
